A study of Mus musculus with 8 samples.

Results

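The integrins and the core of the focal adhesion are a set of 39 genes, picked out by symbol from a list of names, of the 47706 genes listed in the count table. They comprise 12 integrin α chains, 8 integrin β chains, 5 talins and kindlins, 5 members of the complex of integrin-linked kinase with the PINCH and parvin proteins, 4 signaling proteins and 5 linkers to actin. All 39 were listed, and 37 of them passed the filter on low counts and were tested.

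Expression was measured by RNA sequencing of primary calvarial osteoblasts, bone-forming cells obtained from the skull vault of mice soon after birth. On day 7 of differentiation, after serum starvation, 4 cultures received vehicle and 4 received parathyroid hormone (PTH), and RNA was collected 24 hours later. The sample names begin with "Con", and the labels give no strain, genotype or sex, and do not say whether the cultures of a treatment came from separate isolations. The p-values below therefore measure the spread between these samples, which may be technical. Such primary cultures hold other cells of the calvaria besides osteoblasts. The sample labels name adipogenic differentiation, whereas the methods of the study describe an osteogenic medium.

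Integrins are receptors made of 1 α and 1 β chain that bind the extracellular matrix, and the pairing decides whether a receptor binds the RGD sequence of fibronectin and vitronectin, collagen or laminin. Inside the cell, talins and kindlins bind the β tail and activate the receptor, and a layer of adaptors, kinases and actin-binding proteins connects it to the cytoskeleton. In osteoblasts these contacts hold the cell on the collagen matrix that it lays down and pass on mechanical load.

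Total counts were between 41618108 and 46757836 in the vehicle cultures and between 33605610 and 56090654 in the PTH cultures. PTH replicates 1 and 2, the deepest and the shallowest library, lay at the opposite ends of the second principal component, and the member genes followed the same split. PTH replicate 2 was the lowest PTH culture for 18 of the 37 members tested (48.6%, against 29.7% of all genes tested), and PTH replicate 1 was the highest for 16 (43.2%, against 29.9%). Levels are given as CPM, that is, counts scaled to the TMM-normalized library size. The 13 osteoblast markers, none of them at 0, summed to 93030 to 105600 CPM with vehicle and to 86970 to 125600 CPM with PTH. Most of that sum was Col1a1, Col1a2 and Sparc, none of which was called by the test given below. By that test 4 of the 13 fell (30.8%, against 22.5% of all genes tested) and none rose. Those that fell were Sp7 (log2 fold change -1.78), Dmp1 (-1.12), Pth1r (-0.70) and Runx2 (-0.33). The 14 macrophage markers summed to 1120 to 1829 CPM with vehicle and to 1748 to 2242 CPM with PTH. 3 of these macrophage markers rose (21.4%, against 23.3% of all genes tested) and none fell. The log2 fold changes of all 14 were above 0, from 0.19 to 0.86, with a median of 0.34 (-0.0008 for all genes tested). Most of their sum was Lyz2, 1 of those that rose, at a mean of 914 CPM with vehicle and 1417 CPM with PTH. In bulk RNA, a change in the number of cells of a type cannot be told apart from a change in RNA per cell.

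After PTH, most of the intracellular members that changed fell, and the receptor chains showed changes in both directions. Of the 37 members tested, 8 rose and 13 fell at a Benjamini-Hochberg adjusted p under 0.05 by edgeR's quasi-likelihood test, in a comparison in which 23.3% of all genes tested rose and 22.5% fell. The 21 members called are 56.8% of those tested, and 45.8% of all genes tested were called. The 4 PTH cultures lay entirely above or entirely below the 4 vehicle cultures for 23 members (62.2%), which was the case for 43.0% of all genes tested. Of the 21 members called, 5 changed by 1 or more on the log2 scale, namely Itga7, Itgb7, Itgb8, Parvb and Lims2. Genes that were called and also changed this much, in either direction, made up 11.2% of all genes tested. The changes were mostly small, with a median absolute log2 fold change of 0.25 for the members and 0.35 for all genes tested.

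By role, 6 of the 19 integrin chains tested rose and 2 fell (42.1% called, against 45.8% of all genes tested). Their median log2 fold change was -0.10. The balance of rises and falls rested on single libraries. Without PTH replicate 1, 5 chains rose and 7 fell, since Itga11 lost its call and Itga1, Itga8, Itgav, Itgb3 and Itgb5 were called lower. No chain was called lower (0 of 19) without vehicle replicate 1 or without vehicle replicate 3, and 1 was without PTH replicate 2 or without PTH replicate 3. Of the 18 intracellular members tested, 2 rose and 11 fell (72.2% called), with a median log2 fold change of -0.23. Between 8 and 11 of them fell with any 1 library left out. The median over all genes tested was close to 0, at -0.0008. That receptor and intracellular members differ from each other as groups was not tested.

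**Figure D1:**
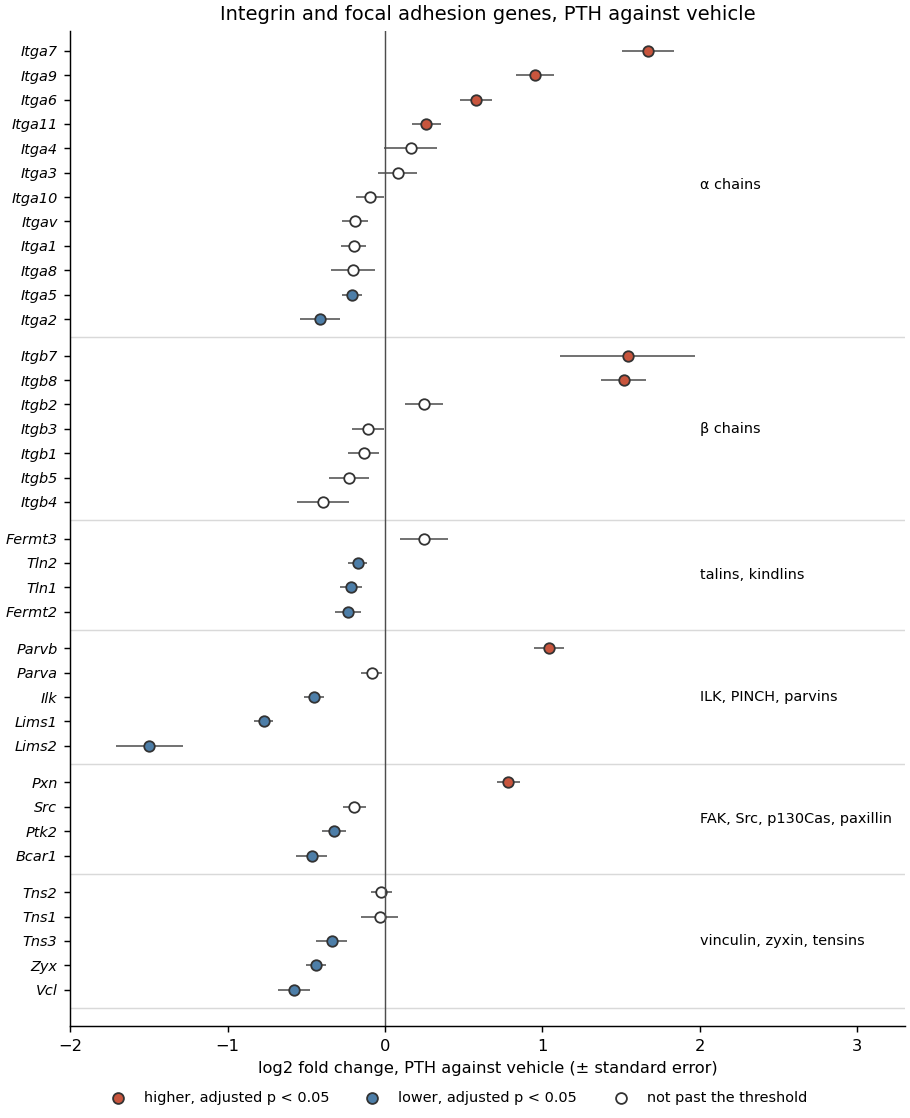
The log2 fold change of each tested member with PTH against vehicle, with its standard error, by role in the adhesion; filled points passed an adjusted p of 0.05. Itga7, Itgb7, Itgb8 and Parvb lie at 1 or above and Lims2 lies below -1, whereas most intracellular members lie to the left of 0.

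To compare genes with each other, CPM was divided by the length of the longest annotated transcript in kilobases, and the following are vehicle levels on that scale. Itgb1, the β chain that pairs with most of the α chains present here, was the most abundant member at 248 ± 2.62 CPM per kb (SD, n = 4), and Itgb5, which pairs with αv, followed at 179 ± 9.59. Zyx reached 70.6 ± 1.17 CPM per kb, Ilk 60.9 ± 2.42, Vcl 59.3 ± 3.70 and Parva 57.3 ± 1.90. The values from Ilk to Parva differ by less than the summed spread of neighbours. Among the α chains, Itga11 stood highest at 47.3 ± 3.15 CPM per kb, ahead of Itgav at 29.6 ± 1.02 and Itga5 at 22.2 ± 0.803. The members with the largest rises were among the least abundant. Itga7 was at 0.906 ± 0.112 CPM per kb, Itgb8 at 0.459 ± 0.0390 and Itgb7 at 0.118 ± 0.0549. Part of this order depends on the length used. With the mean transcript length instead, Itgav stood above Itga11 (86.7 against 54.7 CPM per kb) and Tln1 above Zyx (213 against 152). Itgb1 and Itgb5 stayed highest, at 468 and 410.

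**Figure D2:**
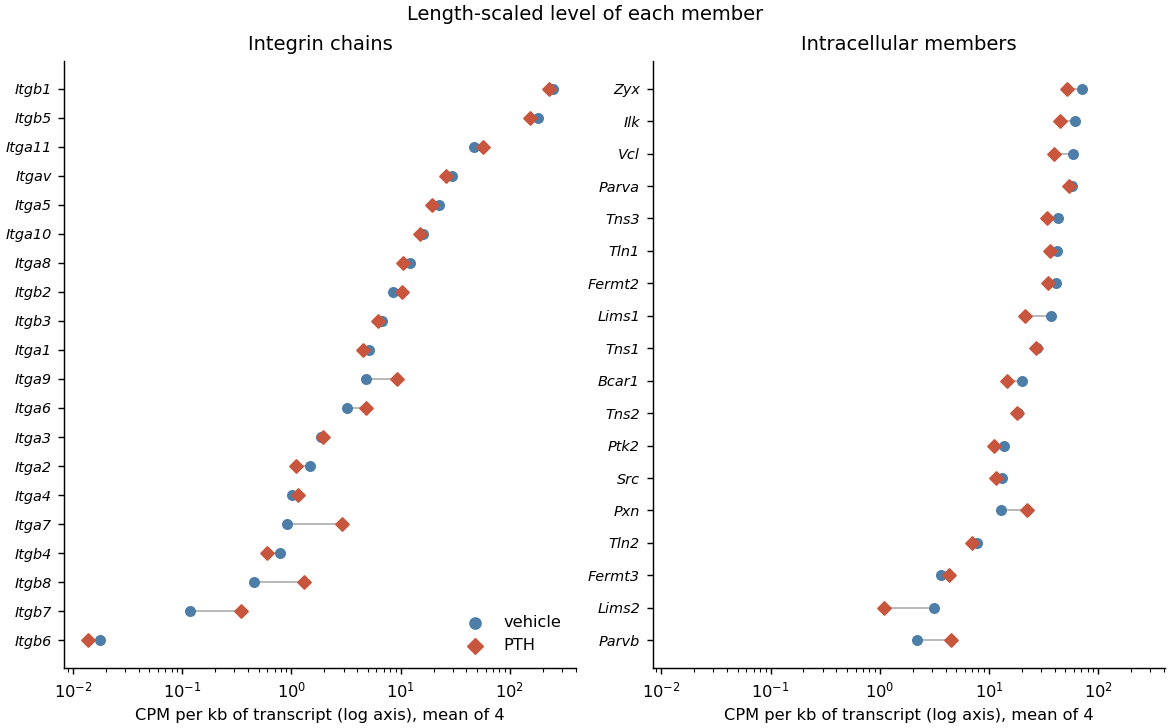
The level of each member in CPM per kb of the longest transcript, with vehicle and with PTH, on a logarithmic axis, as the mean of 4 cultures; Fermt1, at 0, is not drawn. Itgb1 and Itgb5 stand highest in both treatments, and Itga7, Itgb8 and Itgb7, which rose, stand near the lower end.

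Itgb1 and Itgb5, the most abundant receptor chains, did not pass the test. Itgb1 was measured at 933, 957, 949 and 945 CPM in vehicle replicates 1 to 4 and at 996, 711, 812 and 925 CPM in PTH replicates 1 to 4. PTH replicate 1 lay above all vehicle cultures and the other PTH cultures lay below them. Its log2 fold change was -0.14 (SE 0.0981, adjusted p = 0.284). Itgb5, at 583, 607, 614 and 545 CPM with vehicle, was spread still more widely with PTH, at 626, 395, 436 and 549 CPM. Its log2 fold change was -0.23 (SE 0.126, adjusted p = 0.164), and without PTH replicate 1 it was -0.36 and passed the test (adjusted p = 0.0131). Itgav, the αv chain of vitronectin receptors, had a log2 fold change of -0.19 (adjusted p = 0.0746), which became -0.26 without that culture (adjusted p = 0.0119). Itgb3, the other main partner of αv, changed the call in the same way, from a value of -0.11 (adjusted p = 0.413) to -0.21 (adjusted p = 0.0480).

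Itga7, a laminin-binding α chain best known from muscle, lies at chromosome 10, 128933818 to 128958282 (GRCm38), and showed the largest rise of the members. It was measured at 4.20, 3.49, 3.76 and 3.13 CPM with vehicle and at 8.55, 14.4, 12.1 and 11.4 CPM with PTH. Every PTH culture was more than 2 times as high as the highest vehicle culture, and PTH replicate 1 was the lowest of them. The log2 fold change was 1.67 (SE 0.165, adjusted p = 5.58e-06), a fold of 3.18. The 8 skeletal muscle markers summed to 6.27 to 7.91 CPM with vehicle and 9.87 to 11.95 CPM with PTH. Pax7, of muscle precursor cells, rose from 3.91 ± 0.281 to 6.79 ± 0.523 CPM (SD, n = 4, log2 fold change 0.79, adjusted p = 3.09e-04), and the embryonic myosin gene Myh3 from 0.889 ± 0.134 to 1.89 ± 0.527 CPM (1.09, adjusted p = 0.00637). Neither overlapped between treatments. Myod1, Myog, Myf5, Ckm and Actc1 stayed under 1 CPM in every culture, with Myf5 at 0, and Des was at 1.52 ± 0.368 and 1.38 ± 0.419 CPM. The part of such cells in the Itga7 result was not tested.

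Itga6, the α chain of the laminin receptors with β1 and β4, rose as well. It was at 14.2, 13.4, 11.5 and 16.1 CPM with vehicle and at 21.9, 19.95, 19.2 and 21.3 CPM with PTH, and the treatments did not overlap. Itga6 had a log2 fold change of 0.58 (SE 0.104, adjusted p = 6.99e-04). The third laminin-binding chain, Itga3, had a log2 fold change of 0.08 (adjusted p = 0.623), with PTH cultures inside the vehicle range. Itgb4, the laminin-binding partner of α6 in epithelia, was lower in all 4 PTH cultures (3.304 to 3.91 CPM) than with vehicle (4.15 to 6.24 CPM), at a log2 fold change of -0.39 that did not pass the test (SE 0.167, adjusted p = 0.0741). The 8 epithelial markers summed to 5.86 to 7.16 CPM with vehicle and 5.35 to 6.95 CPM with PTH. Most of that sum was Trp63, at a mean of 5.4 CPM with vehicle and 4.3 CPM with PTH (adjusted p = 0.107). 5 of the 8, including Epcam and Krt5, were under 1 CPM in all cultures. Of the 3 tested, 1 rose (33.3%, against 23.3% of all genes tested) and none fell. It was Krt18, from a mean of 0.147 to 0.962 CPM without overlap (log2 fold change 2.65, adjusted p = 0.0255), on at most 53 counts per library.

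Itga9, whose product binds tenascin-C and osteopontin without needing the RGD sequence, rose from a length-scaled level above those of Itga6 and Itga7, at 4.78 ± 0.346 CPM per kb with vehicle and 9.26 ± 1.87 with PTH. It lies at chromosome 9, 118606690 to 118901003. Its level was 34.9, 30.0, 35.3 and 34.1 CPM with vehicle and 84.6, 61.0, 57.6 and 57.0 CPM with PTH. The treatments were far apart, and PTH replicate 1 stood above the other PTH cultures. Itga9 had a log2 fold change of 0.95 (SE 0.121, adjusted p = 4.71e-05). The 8 endothelial markers, genes of a cell type in which Itga9 is also known, summed to 22.3 to 23.9 CPM with vehicle and 29.65 to 49.5 CPM with PTH. 5 of these, including Pecam1 and Cdh5, were under 1 CPM throughout, and most of the sum was Erg. Erg and Kdr rose (log2 fold changes of 0.99 and 1.51), whereas Tek fell (-0.49, adjusted p = 0.0216). The part of endothelial cells in the Itga9 result was not tested. Itga4, the nearest relative of Itga9, had a log2 fold change of 0.16 (adjusted p = 0.469).

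Itgb8, which pairs with αv to bind latent TGF-β, lies at chromosome 12, 119158022 to 119238802. It was at 3.86, 3.63, 3.61 and 4.31 CPM with vehicle and at 11.9, 8.73, 10.5 and 13.0 CPM with PTH. All PTH cultures were more than 2 times as high as the highest vehicle culture. The log2 fold change was 1.52 (SE 0.142, adjusted p = 3.40e-06). Itgb7, a β chain of lymphocytes, had a fold of like size at a far lower level, with 0.424, 0.390, 0.355 and 0.101 CPM against 0.780, 1.11, 0.914 and 0.903 CPM. These values rest on 5 to 40 counts per library, and the log2 fold change of 1.54 had an SE of 0.428 (adjusted p = 0.0110). With PTH replicates 1 and 2 both left out, the adjusted p was 0.0534. Of 8 lymphocyte markers, Cd3e, Cd3g and Cd8a were at 0 in all 8 cultures and 7 were under 1 CPM. Itgb6, a β chain of epithelia, had at most 8 counts in any library and was not tested.

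Changes in the chains of collagen and fibronectin receptors were small. Itga11, the main collagen-binding chain of these cells by length-scaled level, was at 239, 246, 243 and 212 CPM with vehicle and at 315, 250, 251 and 311 CPM with PTH. Its lowest PTH culture lay just above the highest vehicle culture, and the log2 fold change was 0.26 (SE 0.0931, adjusted p = 0.0370). This call was lost when vehicle replicate 1, 2, 3 or 4 or PTH replicate 1 or 4 was left out, with adjusted p from 0.0665 to 0.129, and with no filter on low counts (adjusted p = 0.118). Itga2, another collagen-binding chain, fell from 11.4, 10.3, 11.2 and 8.83 CPM to 8.58, 6.32, 8.01 and 8.25 CPM, by 0.41 on the log2 scale (SE 0.126, adjusted p = 0.0178). Without vehicle replicate 1 or 3 its adjusted p was 0.0541 or 0.0535. The collagen-binding Itga1 and Itga10 had log2 fold changes of -0.20 (adjusted p = 0.0543) and -0.10 (adjusted p = 0.396). Itga1 passed the test without vehicle replicate 4 (adjusted p = 0.0379) or PTH replicate 1 (adjusted p = 0.0350).

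Itga5, the α chain of the classical fibronectin receptor, was at 102, 95.6, 100.4 and 94.7 CPM with vehicle and at 91.6, 77.9, 84.2 and 85.5 CPM with PTH. The treatments did not overlap, and the log2 fold change was -0.21 (SE 0.0648, adjusted p = 0.0187). The adjusted p was between 0.0522 and 0.0618 without vehicle replicate 1 or 3 or PTH replicate 2 or 3, and 0.105 with an offset for transcript length. Itga8, an RGD-binding chain of mesenchymal cells, had a log2 fold change of -0.20 (adjusted p = 0.262). Leaving out PTH replicate 1 brought Itga8 to -0.34 (adjusted p = 0.0348).

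**Figure D3:**
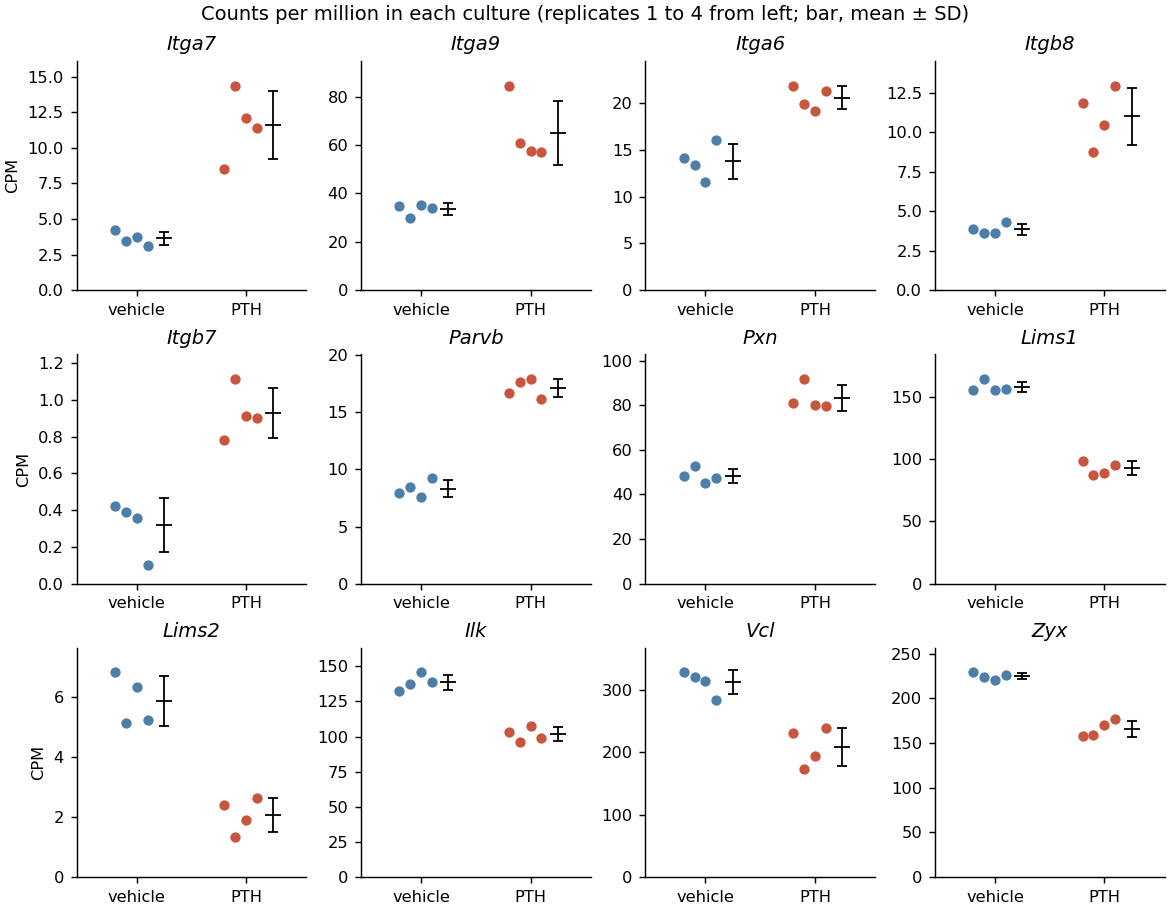
CPM of 12 members with large or firmly called changes in each of the 4 vehicle and 4 PTH cultures, with the mean and SD of each treatment; each panel starts at 0 and has its own scale. Points of the treatments do not overlap for any of the 12, with the 8 cultures of Itga7 between 3.13 and 14.4 CPM and those of Lims2 between 1.32 and 6.81 CPM.

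As a description of the receptor repertoire, the length-scaled levels of the 12 α chains were summed in each culture and the share of each ligand class was taken. The RGD-binding chains (Itga5, Itga8 and Itgav) made up 43.9% ± 0.610 (SD, n = 4) with vehicle and 36.4% ± 1.23 with PTH. The share of the collagen-binding chains (Itga1, Itga2, Itga10 and Itga11) was 48.0% ± 0.726 with vehicle and 50.45% ± 1.45 with PTH. Within this class only Itga11 had a higher mean share with PTH (32.5% ± 1.42 and 37.0% ± 1.39), and those of Itga1, Itga2 and Itga10 were lower. The laminin-binding chains (Itga3, Itga6 and Itga7) held 4.09% ± 0.340 and 6.35% ± 0.834, and Itga4 with Itga9 held 3.99% ± 0.338 and 6.81% ± 0.785. Of the latter, Itga9 held 3.29% and 6.05%, and Itga4 0.70% and 0.76%. For each of the 4 classes the PTH cultures lay outside the vehicle range, and no test was made on these shares, which depend on each other and on the transcript lengths used. The summed level itself overlapped between treatments, at 145.5 ± 5.55 and 152.8 ± 15.7 CPM per kb. Among the β chains Itgb1 held 55.9% ± 0.965 with vehicle and 57.0% ± 1.43 with PTH, and the treatments overlapped.

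**Figure D4:**
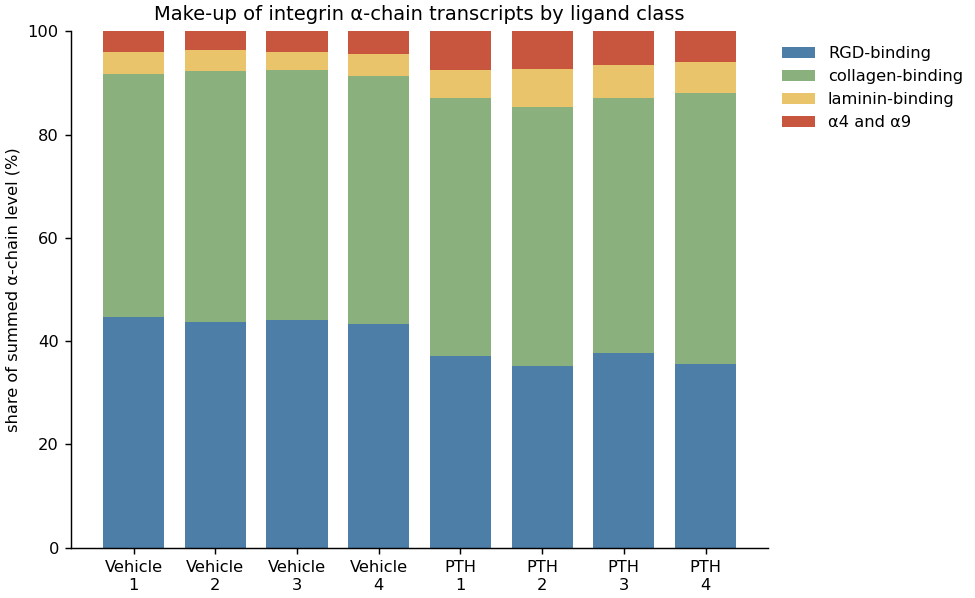
Share of the summed length-scaled level of the 12 integrin α chains held by the RGD-binding, collagen-binding and laminin-binding chains and by α4 with α9, in percent, for each of the 8 cultures. The RGD-binding share is lower in all 4 PTH cultures (35.2% to 37.7%) than in the vehicle cultures (43.3% to 44.7%), and the other classes are higher.

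Most of the intracellular members fell. Before their values, the sequences upstream of the RefSeq starts of a few of them are shown. The transcription factors that act on PTH signaling or on actin dynamics are known to read short motifs. RefSeq promoters on GRCm38.p6 were found for 29 members (35 promoters), and the 250 bases before the start were searched on both strands, with capitals marking a match. The cyclic AMP response element TGACGTCA was in none of the member promoters (1.55% of 32851 promoters), and its core TGACG, which is contained in the full element, was in 5 of the 35, those of Ilk, Itga9, Itgb1, Itgb6 and Tln1 (17.8% of all). The AP-1 site TGANTCA was in that of Zyx (6.75% of all). The CArG box, read by serum response factor, was in those of Fermt2, Itgb6 and Vcl (1.47% of all), and the TEAD site GGAATG in those of Itga10, Itgb1 and Vcl (12.6% of all). The promoters shown belong to 4 genes that fell. Vcl has both a CArG box and a TEAD site, Fermt2 a CArG box, Zyx an AP-1 site, and Ilk the TGACG core, on the opposite strand and so read here as CGTCA. Ilk has a second promoter in RefSeq without a match. The RefSeq and GENCODE starts differ for Zyx and Fermt2, whose GENCODE genes begin within the stretches shown. By the GENCODE start at 42349630, the AP-1 site of Zyx lies inside the gene. A match describes these letters only and does not show that a factor binds.
Vcl, chr14:20929148-20929397, plus strand: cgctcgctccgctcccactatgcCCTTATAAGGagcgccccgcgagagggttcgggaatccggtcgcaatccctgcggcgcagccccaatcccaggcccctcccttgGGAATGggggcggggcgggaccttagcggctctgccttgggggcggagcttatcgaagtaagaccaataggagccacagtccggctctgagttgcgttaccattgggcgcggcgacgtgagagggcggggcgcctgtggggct
Fermt2, chr14:45530066-45530315, minus strand: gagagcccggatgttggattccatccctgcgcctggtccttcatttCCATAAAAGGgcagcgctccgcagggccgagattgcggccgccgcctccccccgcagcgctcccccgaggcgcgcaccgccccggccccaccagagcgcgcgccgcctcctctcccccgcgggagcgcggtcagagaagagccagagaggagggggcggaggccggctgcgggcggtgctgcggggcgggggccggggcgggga
Zyx, chr6:42349578-42349827, plus strand: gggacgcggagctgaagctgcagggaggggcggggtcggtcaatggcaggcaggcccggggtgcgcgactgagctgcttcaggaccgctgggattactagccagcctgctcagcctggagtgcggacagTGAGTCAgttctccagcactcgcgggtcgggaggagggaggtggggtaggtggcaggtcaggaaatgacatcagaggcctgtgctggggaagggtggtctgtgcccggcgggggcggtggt
Ilk, chr7:105736340-105736589, plus strand: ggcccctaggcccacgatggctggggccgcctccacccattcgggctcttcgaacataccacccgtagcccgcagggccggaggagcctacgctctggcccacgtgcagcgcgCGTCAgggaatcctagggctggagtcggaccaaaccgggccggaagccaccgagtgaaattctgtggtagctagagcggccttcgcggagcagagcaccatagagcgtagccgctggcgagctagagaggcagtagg

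Vcl encodes vinculin, which joins talin to actin when the contact is under tension, and starts at chromosome 14, 20929398. It was at 328, 322, 315 and 284 CPM with vehicle and at 230, 174, 194 and 239 CPM with PTH. Every PTH culture lay below every vehicle culture, with replicate 2 lowest. Vcl fell by 0.58 on the log2 scale (SE 0.10, adjusted p = 5.33e-04). Zyx encodes zyxin, which recruits actin-assembly factors to stressed filaments (chromosome 6, 42349630 to 42360213). Its vehicle cultures were tightly grouped at 229, 225, 220 and 227 CPM, and the PTH cultures were at 158, 159, 171 and 177 CPM. Zyx fell by 0.44 on the log2 scale (SE 0.0615, adjusted p = 1.08e-04). Tns3, a tensin that binds integrin tails and actin, fell from 335, 318, 325 and 317 CPM to 212, 296, 280 and 236 CPM, by 0.34 on the log2 scale (SE 0.0981, adjusted p = 0.0135). PTH replicate 2, the lowest PTH culture for Vcl, was the highest for Tns3. The related Tns1 and Tns2 had log2 fold changes of -0.03 (adjusted p = 0.840) and -0.03 (adjusted p = 0.784), with overlapping treatments.

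The complex of ILK with PINCH and parvin, which connects β tails to actin, showed changes in both directions. Lims1 (PINCH1), at chromosome 10, 58323466 to 58424691, was at 156, 165, 156 and 157 CPM with vehicle and at 99.1, 87.1, 89.0 and 95.7 CPM with PTH. It had the smallest adjusted p of the members, with a fall by 0.77 on the log2 scale (SE 0.0630, adjusted p = 1.00e-06). Lims2 (PINCH2), its much less abundant relative, had the largest fall of the members, from 6.81, 5.12, 6.32 and 5.22 CPM to 2.38, 1.32, 1.91 and 2.64 CPM, a log2 fold change of -1.497 (SE 0.212, adjusted p = 1.17e-04). Ilk, the pseudokinase at the center of the complex (chromosome 7, 105736592 to 105742925), was at 132, 137, 146 and 139 CPM with vehicle and at 103, 96.3, 108 and 98.8 CPM with PTH. Neither of the PINCH genes nor Ilk overlapped between treatments, and Ilk fell by 0.45 on the log2 scale (SE 0.0617, adjusted p = 8.96e-05).

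The parvins, which bind ILK and actin, differed in their values. Parvb (β-parvin, chromosome 15, 84232043 to 84315688) was at 7.94, 8.43, 7.57 and 9.29 CPM with vehicle and at 16.7, 17.6, 17.9 and 16.2 CPM with PTH. The 4 PTH cultures agreed closely, and the log2 fold change was 1.04 (SE 0.0935, adjusted p = 2.37e-06). Parva (α-parvin) had a value of -0.09 on the same scale (adjusted p = 0.310) with overlapping treatments. In CPM per kb, Parva stayed the more abundant parvin, at 57.3 ± 1.90 with vehicle and 54.0 ± 2.89 with PTH, against 2.20 ± 0.196 and 4.53 ± 0.210 for Parvb.

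Among the signaling members, Pxn rose, Ptk2 and Bcar1 fell, and Src was not called. Pxn encodes paxillin, a docking protein for focal adhesion kinase and vinculin (chromosome 5, 115506676 to 115555987). It was at 48.4, 52.7, 45.0 and 47.2 CPM with vehicle and at 80.8, 91.7, 80.2 and 79.75 CPM with PTH. The treatments were far apart, and the log2 fold change was 0.78 (SE 0.0723, adjusted p = 3.08e-06). Ptk2, encoding focal adhesion kinase, fell from 60.0, 66.5, 66.9 and 65.0 CPM to 54.4, 44.5, 53.4 and 53.8 CPM, by 0.33 on the log2 scale (SE 0.0764, adjusted p = 0.00417). Bcar1, the gene of the stretch-sensitive substrate p130Cas, was at 64.7, 61.8, 64.2 and 62.0 CPM with vehicle and at 53.5, 41.0, 38.2 and 50.2 CPM with PTH. It fell by 0.47 on the log2 scale (SE 0.0990, adjusted p = 0.00219). Src, the kinase that joins focal adhesion kinase, was at 46.02, 42.3, 45.1 and 47.5 CPM with PTH and at 47.5, 58.0, 52.6 and 49.0 CPM with vehicle. The treatments met without overlapping, at vehicle replicate 1 and PTH replicate 4, and the log2 fold change of -0.19 did not pass the test (SE 0.0756, adjusted p = 0.0531). It passed without vehicle replicate 1 (adjusted p = 0.0369).

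Among the integrin activators, Tln1, Tln2 and Fermt2 showed small falls. Tln1, the main talin, was at 371, 352, 337 and 353 CPM with vehicle and at 275, 322, 317 and 304 CPM with PTH, and fell by 0.22 on the log2 scale (SE 0.0700, adjusted p = 0.0242). Without vehicle replicate 1 or 2 or PTH replicate 4 its adjusted p was between 0.0519 and 0.0634. Tln2 fell by 0.17 on the log2 scale (SE 0.0598, adjusted p = 0.0309), a call lost without vehicle replicate 1, 2 or 3 or PTH replicate 3 or 4 (adjusted p from 0.0526 to 0.0943). Fermt2, the kindlin of mesenchymal cells, was at 127, 138, 142 and 135 CPM with vehicle and at 125, 97.5, 113 and 125 CPM with PTH. Its fall by 0.24 on the log2 scale (SE 0.0825, adjusted p = 0.0341) was lost without vehicle replicate 2, 3 or 4 or PTH replicate 2 or 3 (adjusted p from 0.0777 to 0.0943) and with an offset for transcript length (adjusted p = 0.131). Fermt1, the epithelial kindlin, was at 0 in all 8 libraries, where 3 counts correspond to between 0.0585 and 0.0903 CPM.

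Among the vehicle cultures, Itgb2, Fermt3 and Itga4 were highest where the macrophage markers were. Itgb2, the β chain of leukocytes, was at 22.7, 22.2, 23.8 and 33.2 CPM with vehicle and at 31.45, 32.2, 28.0 and 29.55 CPM with PTH. Vehicle replicate 4 was the highest of all 8, and it also had the highest macrophage sum of the vehicle cultures, at 1829 CPM. For Itgb2 the change on the log2 scale was 0.25 (adjusted p = 0.114), and 0.40 without that culture (adjusted p = 0.00213). Fermt3, the kindlin of blood cells, was also highest in vehicle replicate 4 of the vehicle cultures (13.85 CPM). Its change on the log2 scale was 0.25 (adjusted p = 0.209), and 0.39 without that culture (adjusted p = 0.0383). Itgb7 went the other way, with its lowest value in vehicle replicate 4. The part of macrophages in these values was not tested. Of 6 further leukocyte and platelet α chains, 4 were tested and 1 rose (25.0%, against 23.3% of all genes tested). It was Itga2b, from 4.52 ± 0.912 CPM to 10.4 ± 2.29 CPM (SD, n = 4), with a log2 fold change of 1.20 (SE 0.184, adjusted p = 2.18e-04). The 7 mast cell and platelet markers summed to 3.65 to 7.18 CPM with vehicle and to 6.73 to 9.76 CPM with PTH. All but Pf4 (6 of the 7) were under 1 CPM in every culture. Of the 4 of these markers tested, 2 rose and none fell. Pf4 rose from a mean of 4.22 CPM with vehicle to 6.71 CPM with PTH (log2 fold change 0.67, adjusted p = 0.0267). Its treatments overlapped. Ppbp rose from a mean of 0.0367 to 0.568 CPM without overlap (log2 fold change 3.82, adjusted p = 0.00100). It had at most 29 counts in any library. The part of such cells in the Itga2b result was not tested.

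**Figure D5:**
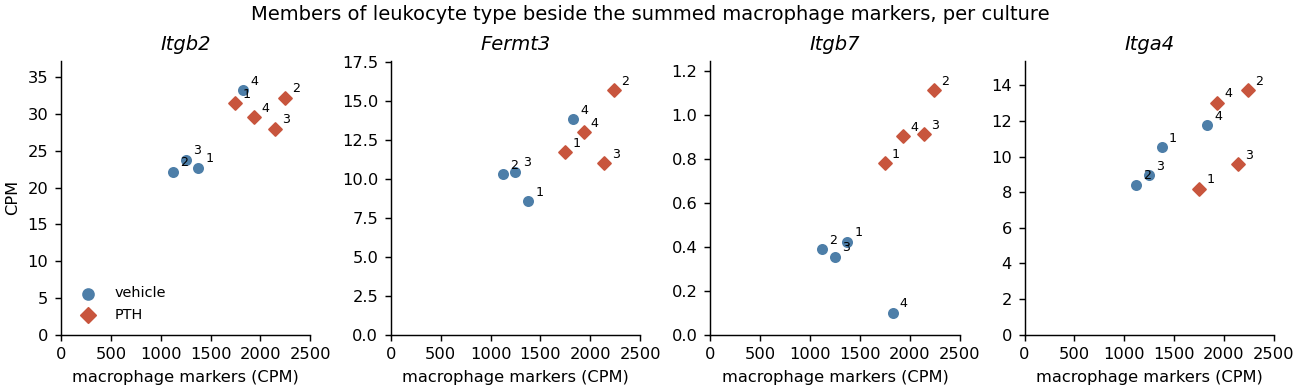
CPM of the members typical of blood cells plotted against the summed CPM of 14 macrophage markers, 1 point per culture, numbered by replicate. Vehicle replicate 4, at a sum of 1829 CPM, lies above all other cultures for Itgb2, at 33.2 CPM, and is the lowest of the 8 for Itgb7 at 0.101 CPM.

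Genes around the members were taken from lists of other adhesion proteins and of integrin ligands. Of 80 other adhesome genes tested, 17 rose and 36 fell (66.2% called, against 45.8% of all genes tested). Their median log2 fold change was -0.14. The largest rises were those of the matrix co-receptor gene Sdc4 (log2 fold change 2.46, SE 0.115, adjusted p = 7.13e-09), of Csrp2 (1.51) and of Tes (1.51), which encode LIM proteins of the actin cytoskeleton. The largest falls were those of Kank1 (-2.11, SE 0.0968, adjusted p = 5.78e-09) and Kank4 (-1.08), whose products border the adhesion, and of the zyxin-family gene Ajuba (-1.85). Of 60 ligand genes tested, 9 rose and 7 fell (26.7% called, against the same 45.8%), with a median log2 fold change of 0.01. Without PTH replicate 1, 10 rose and 12 fell, and with an offset for transcript length 13 rose and 3 fell. Tgfbi, a secreted RGD protein, rose most (1.604, SE 0.108, adjusted p = 1.66e-07), followed by the fibrinogen gene Fgb (1.30, overlapping treatments) and the laminin gene Lama5 (0.90). The matricellular gene Ccn2, listed as Ctgf, fell most (-1.80, SE 0.0923, adjusted p = 1.62e-08), with Dmp1 (-1.12), a bone matrix protein gene, and the laminin gene Lama4 (-1.11) next.

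Some of the counts could include reads of neighbours. For 18 members an annotated gene overlaps on the opposite strand, among them Itga7 (Mettl7b), Itga9 (Gm10157 and Gm2415), Lims2 (Gpr17), Ilk (Rrp8 and Taf10), Vcl (Ap3m1) and Zyx (Epha1). Without a strand setting in the sources, reads of such a pair cannot be told apart. 3 members share a merged locus with another symbol, namely Itga5, Itga10 and Fermt2.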

How the data were processed

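The authors prepared poly(A) libraries, aligned paired reads to GRCm38 (mm10) with HISAT2, sorted them with SAMtools, assembled transcripts with StringTie2 and compared the treatments with DESeq2. They deposited whole-number counts per gene and sample, made from transcript coverage by StringTie2's companion script and not normalized. The annotation, strand setting and read-length setting are not given in the sources used here. A wrong read-length setting would scale all counts alike, and reads of overlapping genes may be misassigned.

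2 entries without a symbol (0.0028% of counts) were dropped. edgeR 4.0.16 in R 4.3.3 (filterByExpr at min.count 10 and min.total.count 15, TMM, two-sided quasi-likelihood F-test) compared PTH with vehicle over 16734 genes, and p-values were adjusted by Benjamini-Hochberg over all of them, with a threshold of 0.05 and no minimum fold change. Exact permutation tests on 4 against 4 samples cannot give a two-sided p under 0.0286, and none is printed. The fit was tested on simulated counts. Floors cover counting error only, and genes with few counts are the least precise.

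Positions are those of GENCODE M21 on GRCm38, levels between genes use its longest transcript, and promoters are from RefSeq. As an alternative, levels were also scaled to the mean transcript length. 4 list genes were found under older symbols. Alternatives were DESeq2 1.42.0, its size factors in edgeR, no low-count filter, a replicate block, counts summed by symbol, counts halved, a transcript length offset, a minimum log2 fold change of 1, other length scalings for the shares, leaving out each library, and, added after seeing the data, leaving out both PTH replicates 1 and 2 and counting integrin chains and intracellular members apart under each alternative. The text names all 39 members and, from the other lists, up to 3 genes with the largest called change each way. The members and lists were chosen with earlier results of these data known. Further tools were pandas 2.3.3, NumPy 2.4.6 and matplotlib 3.10.9 under Python 3.11.15. Measurements in mice and other cells were not analysed here.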

Additional observations from a re-analysis of the deposited data

Results flagged for a closer look

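In 7 of 76 groups of 4 cultures, the highest or lowest culture of a member stood apart from the other cultures by more than Dixon's critical value for the gap over the range, which chance alone does in about 1 of 20 groups. Itga9 was at 84.59 CPM in PTH replicate 1 and at 57.03 to 60.96 CPM in the other PTH cultures. Itga3 was at 9.93 CPM in PTH replicate 1 and at 9.267 to 9.366 CPM in the others. PTH replicate 2 stood apart for Ptk2, at 44.5 CPM against 53.38 to 54.39 CPM, and for Pxn, at 91.72 CPM against 79.75 to 80.83 CPM. Vehicle replicate 4 stood apart for Itgav, at 197.8 CPM against 210.8 to 212.7 CPM, and for Itgb2, at 33.22 CPM against 22.18 to 23.79 CPM. Lims1 was at 164.8 CPM in vehicle replicate 2 and at 155.8 to 157.0 CPM in the other vehicle cultures.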

How the results depend on the processing

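Of the 21 members called, 14 kept their direction and their call in all 16 alternatives run for each member, and the others (Itga2, Itga5, Itga11, Itgb7, Tln1, Tln2 and Fermt2) kept their direction and lost the call in at least 1. With the replicate block, 7 members rose and 10 fell, and the adjusted p was 0.0808 for Itga11, 0.0748 for Tln1, 0.0632 for Tln2 and 0.0582 for Fermt2, with no other call lost. Same-numbered cultures had correlations of -0.041 to 0.0275, which gives no sign that the numbers pair the cultures. These few values cannot show that the cultures were unpaired. With each library left out in turn, 7 to 9 members rose and 9 to 18 fell, the latter without PTH replicate 1, and 6 to 12 ligand genes fell, again with the highest count without PTH replicate 1. Of the integrin chains, 5 to 6 rose and 0 to 7 fell, and of the intracellular members 2 to 3 rose and 8 to 11 fell. With both PTH replicates 1 and 2 left out, 7 members rose and 13 fell. A minimum log2 fold change of 1 left 4 members higher and 1 lower (chains 3 and 0, intracellular members 1 and 1), 6 other adhesome genes higher and 3 lower, and 2 ligand genes higher and 3 lower. With a transcript length offset 3 ligand genes and 1 integrin chain fell, and the causes were not tested. The sign of members near 0 and not called turned for Itga3 (-0.0179 to 0.16 with a library left out, below 0 without vehicle replicate 4), Tns1 (-0.12 to 0.0421) and Tns2 (-0.0666 to 0.0018, and 0.0384 with the length offset). The difference in the share of RGD-binding chains was -7.538 percentage points and was -8.86 with the mean transcript length. That of α4 with α9 was 2.818, and was 5.514 with the mean length and 3.607 without length scaling. Depth limits Itgb7 (5 to 40 counts), Itgb6 and Fermt1.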
